A study of Homo sapiens with 16 samples.

Results

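The amino acid transporter genes are the protein-coding genes whose symbols place them in the solute carrier families SLC1, SLC3, SLC6, SLC7, SLC36, SLC38 and SLC43, with SLC7A11 left out. Membership was set by symbol alone, and 58 of the 58735 genes in the count table qualified. Of these, 40 passed the filter on low counts and were tested among 18121 genes. They were measured by poly(A) RNA sequencing in differentiated HepaRG, a human liver cell line that the labels describe as resembling both hepatocytes and cholangiocytes. The design had 4 groups of 4 libraries. Control cells received the vehicle, 1% BSA. The formoterol group received 30 nM formoterol, a long-acting β-adrenergic receptor agonist. The fatty acid group received 0.25 mM palmitic and 0.5 mM oleic acid, given as sodium salts. The combination group received both treatments at those doses. Treatment lasted 3 days, and every group stayed in medium with 2% DMSO, triamcinolone acetonide, insulin and serum. The labels call the libraries independent but name no separate cultures, so p-values measure the spread between libraries, which may be technical in part. The sources used here do not say whether the fatty acid media also held BSA.

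Amino acids cross membranes on carriers that couple to sodium, protons or the exchange of another amino acid. The SLC1 family holds the concentrative carriers of glutamate and aspartate and a pair of neutral exchangers. SLC7 proteins are either cationic carriers that work alone or light chains that need a heavy chain of the SLC3 family. SLC38, SLC36 and SLC43 proteins move neutral amino acids across the plasma or lysosomal membrane, and SLC6 carriers take up amino acids, taurine, creatine, betaine and neurotransmitters. In liver these carriers supply urea synthesis, gluconeogenesis, glutathione synthesis and the release or uptake of glutamine.

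Libraries held 32471299 to 65673126 counts, and 1 count corresponded to 0.0168 to 0.0322 CPM. The highest total was that of formoterol replicate 4, and the next highest was 41682806 counts in combination replicate 3. Levels are given as CPM, the counts of a gene scaled to a library total of 1000000 after TMM scaling. Levels of single genes are compared as CPM per kb of the gene length in the count table. Summed CPM and the shares of genes in such sums are not scaled for length, so longer genes weigh more in them. The 10 hepatocyte markers were all detected, with a summed level of 24131 to 36333 CPM in control, 53356 to 57876 with formoterol, 47879 to 55579 with fatty acids and 21081 to 53505 in the combination. Combination replicate 2 gave the lowest of these sums, 21081 CPM. The 8 cholangiocyte markers summed to 164 to 169 CPM in control, 189.8 to 200.1 with formoterol, 317 to 370.2 with fatty acids and 256 to 334 in the combination, with EPCAM listed at 0 in all 16 libraries. Within that list SOX9 went from 47.9 CPM in control to 23.1 in the combination without replicate 2, while CD24 went from 50.7 to 161. The 7 stellate and fibroblast markers summed to 567 to 706 CPM in control, 405 to 443 with formoterol, 681 to 780.4 with fatty acids and 533 to 642 in the combination, mostly from DCN, with COL1A2 at 0. The 6 macrophage and leukocyte markers summed to 12.4 to 31.8 CPM over all libraries, nearly all from CD14, and the 5 endothelial markers to 0.669 to 4.63 CPM. C1QB and CDH5 were at 0.

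The carriers of highest level per length were SLC7A2 at 124.9 CPM per kb, SLC38A2 at 91.6 and SLC3A2 at 35.3, as means over the 16 libraries. SLC38A10 followed at 34.1 CPM per kb, SLC38A1 at 28.3 and SLC7A7 at 22.0. SLC3A2 and SLC38A10 were close, at 39.2 and 39.5 CPM per kb in control. In all, 10 members had at least 10 CPM per kb, 16 had from 1 to under 10 and 14 had under 1. SLC7A2 alone supplied 31.6% ± 1.41 (SD, n = 4) of the summed CPM of all members in control and 26.1% ± 1.28 with fatty acids. The summed CPM was 3340 ± 85.2 in control, 3281 ± 119 with formoterol, 2701 ± 114 with fatty acids and 3047 ± 84.1 in the combination (SD, n = 4 each). After TMM scaling the fatty acid libraries, at 2573 to 2832 CPM, lay below all other libraries. As shares of total counts they did not: formoterol replicate 4 had 0.281% of its counts in members and fatty acids replicate 3 had 0.285%. By that share all formoterol libraries, at 0.281% to 0.320%, lay below all control libraries, at 0.331% to 0.349%. These sums and shares were chosen after values were seen and were not tested.

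**Figure D1:**
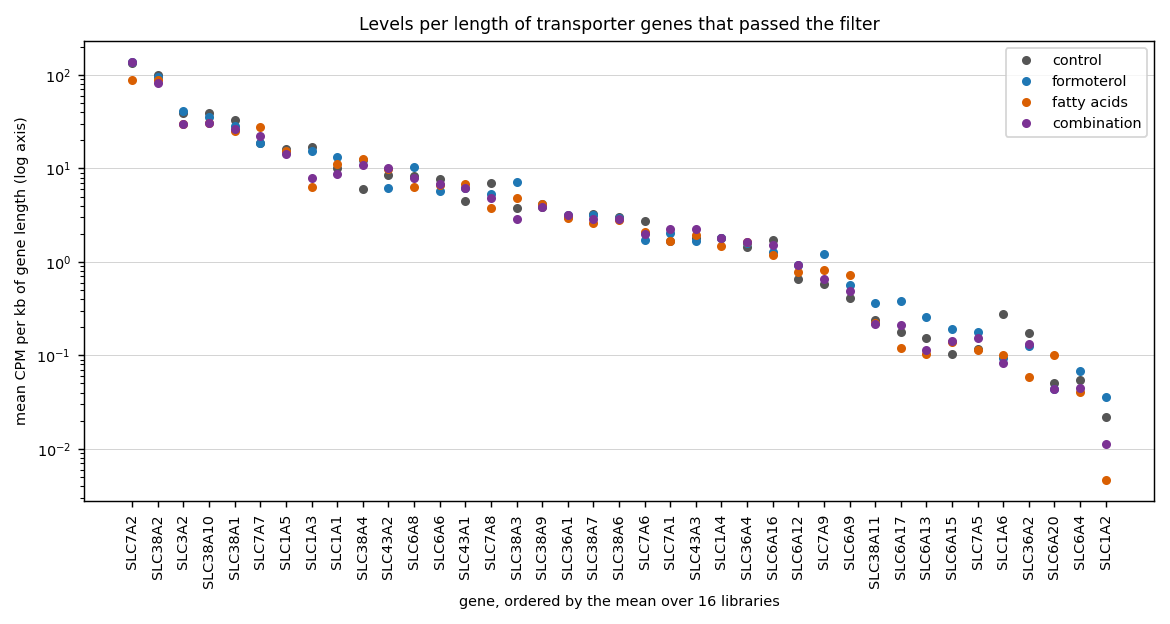
Mean CPM per kb of gene length (log axis) of the transporter genes shown, which passed the filter, ordered by the mean over 16 libraries, with 1 point per treatment group (mean of 4 libraries). SLC7A2 and SLC38A2 stand highest, and the genes on the right lie below 1 CPM per kb.

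Of the 18 members that did not pass the filter, 7 had no count in any library: SLC36A3, SLC38A8, SLC6A14, SLC6A18, SLC6A7, SLC7A14 and SLC7A3. Another 6, SLC1A7, SLC3A1, SLC6A11, SLC6A2, SLC6A5 and SLC7A10, had at most 2 counts in all. SLC38A5, SLC6A19, SLC7A13, SLC6A3 and SLC7A4 had a highest count of 8, 6, 10, 10 and 16 in any library. SLC3A1 is the heavy chain partner of SLC7A9, and SLC6A19 is the main sodium-coupled carrier of neutral amino acids in gut and kidney.

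Among the 40 tested members, 24 were called in at least 1 of 6 comparisons by edgeR's quasi-likelihood test at an adjusted p under 0.05, where 32.6% of all 18121 tested genes were. All members are protein-coding, while the 18121 tested genes also include other gene types. No background share matched for gene type or level was computed for any of the 6 comparisons. Fatty acids against control called 15 members, 5 higher and 10 lower, or 37.5% of those tested, where 16.5% of all 18121 genes were called. The calls came against 8.93% of all genes higher and 7.62% lower. The members' median log2 change was -0.10, against 0.0069 over all tested genes. The 2 groups' libraries did not overlap for 15 members, and for 21.0% of all genes. Formoterol against control called 12 members, 7 higher and 5 lower, where 10.3% of all genes were called. The background was 5.76% higher and 4.57% lower. The members' median log2 change was 0.07, against -0.0022 over all tested genes. The 2 groups' libraries did not overlap for 13 members, and for 16.7% of all genes. The count of calls was 7 without control replicate 3 and 7 without formoterol replicate 4. Over all genes the count fell likewise, from 1872 to 1002 and 1118. With scaling by total counts alone, which moved the median of all genes by -0.13, it was 3 higher and 7 lower.

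Adding formoterol to fatty acids (combination against fatty acids) called 5 members, 4 higher and 1 lower, where 2.80% of all genes were called, 1.68% higher and 1.12% lower. The libraries did not overlap for 9 members and 9.34% of all genes. The count was 3 without fatty acids replicate 2 or combination replicate 1, and 2 without fatty acids replicate 3 or fatty acids replicate 4. Over all genes it was 389, 370, 302 and 353 without those 4 libraries in that order, against 507 with all. Adding fatty acids to formoterol (combination against formoterol) called 12 members, 4 higher and 8 lower, where 18.4% of all genes were called, 9.48% higher and 8.97% lower. The libraries did not overlap for 14 members and 21.1% of all genes. With total-count scaling, which moved the median of all genes by 0.13, it was 4 higher and 5 lower. The combination against control called 14 members, 6 higher and 8 lower, with a background of 14.3%, 7.58% higher and 6.68% lower. The libraries did not overlap for 13 members and 16.3% of all genes. The interaction, which is the log2 effect of formoterol with fatty acids minus that without, called 10 members, 7 positive and 3 negative, where 5.50% of all genes were called, 2.12% positive and 3.38% negative. It called 6 members without control replicate 3, and 444 of all genes against 997 with it. Without combination replicate 2, the library with the lowest hepatocyte marker sum, the 6 comparisons called 17, 15, 4, 10, 14 and 11 members in the order given. Over all genes those counts were 3587, 2588, 590, 2700, 2811 and 1026, against 2998, 1872, 507, 3342, 2583 and 997 with all libraries. Every fatty acid library had higher hepatocyte and cholangiocyte marker sums than every control library, as did every formoterol library, and their part in the members' changes was not tested. Comparisons that share a group share its 4 libraries, so their counts are not independent of each other.

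**Figure D2:**
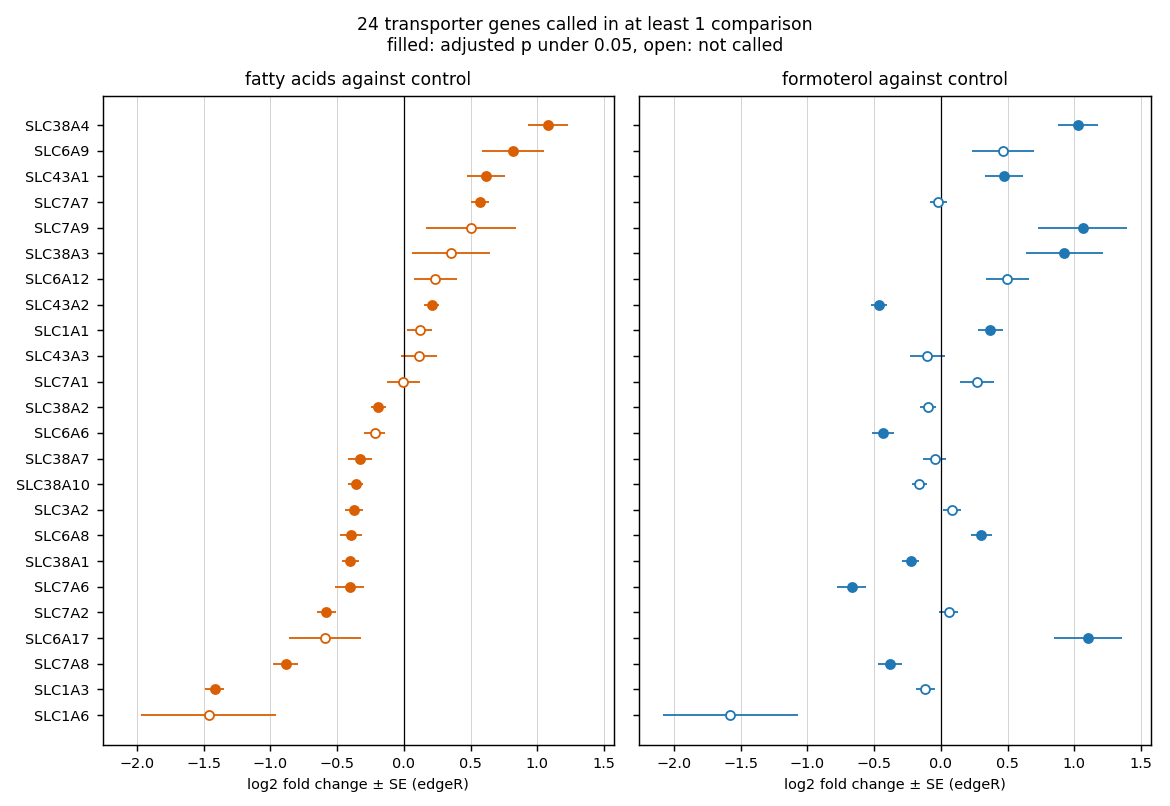
Log2 fold change with its SE (edgeR, 4 libraries per group) for the 24 transporter genes called in at least 1 comparison, fatty acids against control on the left and formoterol against control on the right, in the same gene order. Filled points have an adjusted p under 0.05; SLC1A3 fell by 1.42 with fatty acids and was not called with formoterol alone.

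Of the 5 acidic amino acid carriers 4 were tested. SLC1A3, a sodium-coupled carrier of glutamate and aspartate, fell with fatty acids and was the one acidic carrier called in that comparison, while SLC1A1 and SLC1A6 were called in others. SLC1A3 (ENSG00000079215, chr5:36606355-36688334, plus strand, GRCh38 positions of the whole gene here and below) had 113, 96.9, 102 and 109.7 CPM in control replicates 1 to 4 and 40.5, 40.6, 39.1 and 37.5 CPM with fatty acids. It had 99.4, 93.9, 97.7 and 97.9 CPM with formoterol and 46.3, 54.9, 51.7 and 43.1 CPM in the combination. The fatty acid and combination libraries lay below every control and formoterol library, and the combination libraries lay above every fatty acid library. Log2 changes from edgeR are given with an SE computed as their size over the square root of the test's F statistic. The 95% intervals use that SE, and p-values are adjusted over all tested genes. The change was -1.42 ± 0.07 (adjusted p = 1.14e-11) for fatty acids against control, -0.99 ± 0.07 (adjusted p = 6.49e-09) for the combination against formoterol and -1.11 ± 0.07 (adjusted p = 1.15e-09) for the combination against control. In bulk RNA, fewer cells that express a gene and less RNA per cell cannot be told apart. Formoterol alone gave -0.12 ± 0.07 (adjusted p = 0.336), with a 95% interval of -0.26 to 0.03. With fatty acids present it gave 0.31 ± 0.07 (adjusted p = 0.0174), and the interaction was 0.43 ± 0.10 (adjusted p = 0.0165). The call of the combination against fatty acids was lost without any 1 of fatty acids replicate 3 or 4 or combination replicate 3 (adjusted p = 0.0560 to 0.0683), and with only these 2 groups in the fit (adjusted p = 0.0799).

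SLC1A1, a carrier of glutamate, aspartate and cysteine, followed another pattern (chr9:4490444-4587469, plus strand). It had 40.6, 39.5, 40.9 and 41.9 CPM in control and 51.3, 51.1, 52.9 and 55.5 CPM with formoterol. It had 41.2, 45.3, 46.6 and 43.8 CPM with fatty acids and 33.0, 27.2, 41.0 and 39.4 CPM in the combination. All 4 formoterol libraries lay above all others, and the combination libraries overlapped the control libraries and lay below every fatty acid library. Formoterol raised it by 0.37 ± 0.09 (adjusted p = 0.0129) on the log2 scale without fatty acids. With fatty acids the change was -0.33 ± 0.09 (adjusted p = 0.0596), which was not called, and the interaction was -0.70 ± 0.13 (adjusted p = 0.00425). The combination against formoterol gave -0.58 ± 0.09 (adjusted p = 0.000152). Per kb, SLC1A1 stood at 0.607 ± 0.0332 of the SLC1A3 level in control and at 1.76 ± 0.122 with fatty acids (SD, n = 4), a ratio chosen after values were seen and not tested.

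SLC1A6, a glutamate carrier best known from cerebellar neurons, was low, at 9 to 89 counts per library (chr19:14950034-15022990, minus strand). It had 2.11, 2.58, 1.51 and 2.38 CPM in control and 0.685, 1.23, 0.354 and 0.590 CPM with formoterol. It had 0.293, 0.331, 1.54 and 0.935 CPM with fatty acids and 0.730, 0.240, 1.18 and 0.362 CPM in the combination. The control libraries lay above every formoterol and combination library, and 1 fatty acid library lay above the lowest control library. The combination against control was called at -1.76 ± 0.51 (adjusted p = 0.0235), while fatty acids gave -1.46 ± 0.51 (adjusted p = 0.0524) and formoterol -1.58 ± 0.51 (adjusted p = 0.0509), both just outside the threshold. The call was lost without any 1 of control replicate 2 or 4 or combination replicate 4 (adjusted p = 0.0557 to 0.0751). SLC1A2, the main astrocyte glutamate carrier, had at most 1.23 CPM in any library and was not called.

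The neutral exchangers SLC1A5, which moves glutamine, and SLC1A4, which moves alanine, serine and cysteine, were called in no comparison. SLC1A5 had 53.4 ± 5.54 CPM (SD, n = 4) in control, 50.7 ± 3.32 with formoterol, 50.7 ± 2.31 with fatty acids and 47.7 ± 5.55 in the combination. Its 95% interval for fatty acids against control was -0.25 to 0.10 on the log2 scale, against a change of -1.42 in SLC1A3. SLC1A4 had 12.4 ± 1.82 CPM in control and 10.4 ± 1.03 with fatty acids, with an interval of -0.50 to -0.01 and an adjusted p of 0.163.

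The RefSeq promoter windows of these SLC1 genes are shown because SLC1A3 fell and the exchangers were not called, while 1 window of each of the 3 holds the same 8 letters. The table has 3 windows for SLC1A3, 2 for SLC1A4 and 3 for SLC1A5, and the other windows of these genes do not hold the letters. Those letters fit TGATGNAA, a composite site of the kind bound by ATF4 with a C/EBP partner, a pair of factors active when amino acids run short. Each line gives 60 bases of a promoter window (GRCh38.p14), 5′ to 3′ on the gene's strand, with the match in capitals. The SLC1A4 match is the same site on the opposite strand.
SLC1A3, chr5:36596342-36596401, plus strand: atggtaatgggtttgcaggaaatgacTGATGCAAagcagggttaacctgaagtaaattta
SLC1A4, chr2:64989340-64989399, plus strand: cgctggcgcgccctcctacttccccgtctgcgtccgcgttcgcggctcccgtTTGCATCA
SLC1A5, chr19:46784878-46784937, minus strand: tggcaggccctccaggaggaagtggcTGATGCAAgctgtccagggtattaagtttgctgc
The match begins 220 bases before the RefSeq start in SLC1A3 and 97 bases before it in SLC1A5. The SLC1A3 start lies upstream of the gene's bounds in the count table, and the SLC1A4 and SLC1A5 starts lie inside theirs. Promoter windows of 300 bases were found for 44 of the 58 members and 32 of the 40 tested, with 66 windows in all. TGATGNAA, sought on both strands, was in 9.09% of member windows and 3.62% of all 35116 windows. It was in a window of 6 of the 32 tested members with windows: SLC1A3, SLC1A4, SLC1A5, SLC38A1, SLC3A2 and SLC7A1. With fatty acids against control, SLC1A3, SLC38A1 and SLC3A2 were called lower, and SLC1A4, SLC1A5 and SLC7A1 were not called. Its link to the changes was not tested. A match is a description of letters, not a site shown to be bound.

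SLC3A2, the heavy chain that carries most SLC7 light chains to the plasma membrane, fell with fatty acids in both settings (chr11:62856102-62888875, plus strand). It had 203 ± 14.1 CPM in control (SD, n = 4), 215 ± 11.7 with formoterol, 157 ± 4.57 with fatty acids and 156 ± 13.7 in the combination. The ranges were 182 to 214 CPM in control and 151 to 160.4 with fatty acids, and they did not overlap. The log2 change was -0.37 ± 0.07 (adjusted p = 0.000423) for fatty acids against control and -0.46 ± 0.07 (adjusted p = 6.42e-05) for the combination against formoterol. Formoterol alone gave 0.08 ± 0.07 (adjusted p = 0.500).

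Its light chains moved in opposite directions with fatty acids: SLC7A7 rose while SLC7A8 and SLC7A6 fell. SLC7A7 exchanges cationic for neutral amino acids and is the gene of lysinuric protein intolerance (chr14:22773222-22829820, minus strand). It had 102, 93.1, 98.0 and 95.7 CPM in control and 147, 148, 139.6 and 142 CPM with fatty acids. It had 102, 98.9, 86.7 and 95.8 CPM with formoterol and 111, 128, 116 and 106 CPM in the combination. The 4 fatty acid libraries were the highest, the 4 combination libraries came next, and control and formoterol overlapped. SLC7A7 rose by 0.57 ± 0.06 (adjusted p = 1.86e-06) with fatty acids alone and by 0.27 ± 0.06 (adjusted p = 0.00527) with fatty acids on top of formoterol. The combination against fatty acids was -0.32 ± 0.06 (adjusted p = 0.00559), a call lost with total-count scaling (adjusted p = 0.0628). The interaction missed the threshold at -0.30 ± 0.09 (adjusted p = 0.0528).

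SLC7A8, an exchanger of neutral amino acids, had 38.1, 38.5, 46.0 and 43.3 CPM in control and 22.2, 23.0, 22.4 and 22.2 CPM with fatty acids (chr14:23125295-23183674, minus strand). It had 30.8, 28.9, 36.9 and 31.0 CPM with formoterol and 30.1, 33.4, 25.5 and 26.2 CPM in the combination. All 4 fatty acid libraries lay within 1 CPM of each other and below every other library. The log2 change was -0.89 ± 0.09 (adjusted p = 8.82e-07) for fatty acids, -0.38 ± 0.09 (adjusted p = 0.0113) for formoterol and -0.53 ± 0.09 (adjusted p = 0.000385) for the combination, each against control. The formoterol call was lost without control replicate 3 (adjusted p = 0.0558). Against fatty acids the combination was higher by 0.36 ± 0.09 (adjusted p = 0.0406), and the interaction was 0.74 ± 0.13 (adjusted p = 0.00323). The former call was lost without any 1 of control replicate 4, formoterol replicate 1, fatty acids replicate 1, 2, 3 or 4 or combination replicate 1 or 2 (adjusted p = 0.0524 to 0.116). It was also lost with the replicate block (adjusted p = 0.0537), with total-count scaling (0.0827) and with only these 2 groups fitted (0.0767).

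SLC7A6, which has the same exchange activity as SLC7A7, had 17.3, 20.8, 22.6 and 22.8 CPM in control and 14.0, 12.5, 14.6 and 11.6 CPM with formoterol (chr16:68264516-68301823, plus strand). It had 17.5, 14.0, 17.2 and 14.3 CPM with fatty acids and 16.0, 14.4, 14.6 and 15.4 CPM in the combination. All formoterol and combination libraries lay below all control libraries, while 1 fatty acid library lay above the lowest control. The log2 change against control was -0.67 ± 0.11 (adjusted p = 0.000560) with formoterol, -0.41 ± 0.11 (adjusted p = 0.0128) with fatty acids and -0.47 ± 0.11 (adjusted p = 0.00492) with both. The interaction was 0.60 ± 0.15 (adjusted p = 0.0256). The fatty acid call was lost without fatty acids replicate 2 (adjusted p = 0.0501). The interaction was lost without any 1 of control replicate 3 or 4, formoterol replicate 4, fatty acids replicate 2 or combination replicate 1 (adjusted p = 0.0516 to 0.0658). SLC7A6 shares 3371 exon bases on the opposite strand with SLC7A6OS, whose counts were 0.229 of its own.

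Per kb, SLC7A7 stood at 2.75 ± 0.280 times the SLC7A8 level in control, 3.55 ± 0.562 with formoterol, 7.50 ± 0.186 with fatty acids and 4.71 ± 0.435 in the combination (SD, n = 4). SLC7A7 made up 65.9% ± 2.38 of the summed per-length level of SLC7A5, SLC7A6, SLC7A7 and SLC7A8 in control and 82.5% ± 0.766 with fatty acids. That sum was 28.7 ± 0.948 CPM per kb in control, below SLC3A2 at 39.2 ± 2.73. With fatty acids it was 34.0 ± 0.764 CPM per kb, above SLC3A2 at 30.2 ± 0.882. SLC7A11 was left out of the set, so that sum does not cover all SLC7 genes. These ratios were chosen after values were seen and were not tested. SLC7A5, the large neutral carrier of many dividing cells, had 0.0560 to 0.870 CPM in control and at most 1.39 CPM in any library. Its pseudogene copies SLC7A5P1 and SLC7A5P2 are nearly identical to it and were listed at 0, so how shared reads were counted bears on its level.

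SLC7A9, which takes up cystine and cationic amino acids, had 1.10, 2.18, 1.40 and 1.31 CPM in control and 3.94, 2.62, 2.12 and 3.81 CPM with formoterol (chr19:32830509-32869766, minus strand). It had 1.41, 1.56, 2.22 and 3.26 CPM with fatty acids and 2.54, 0.801, 1.76 and 1.73 CPM in the combination. The highest control library, at 2.18 CPM, lay above the lowest formoterol library. Formoterol against control was called at 1.06 ± 0.33 (adjusted p = 0.0446), the only called comparison of the 6 for this gene. The call was lost without any 1 of control replicate 1, 3 or 4, formoterol replicate 1, 2 or 4, fatty acids replicate 3 or combination replicate 4 (adjusted p = 0.0521 to 0.133). It was also lost with the replicate block (adjusted p = 0.0671), with total-count scaling (0.0607) and among protein-coding genes only (0.0506).

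**Figure D3:**
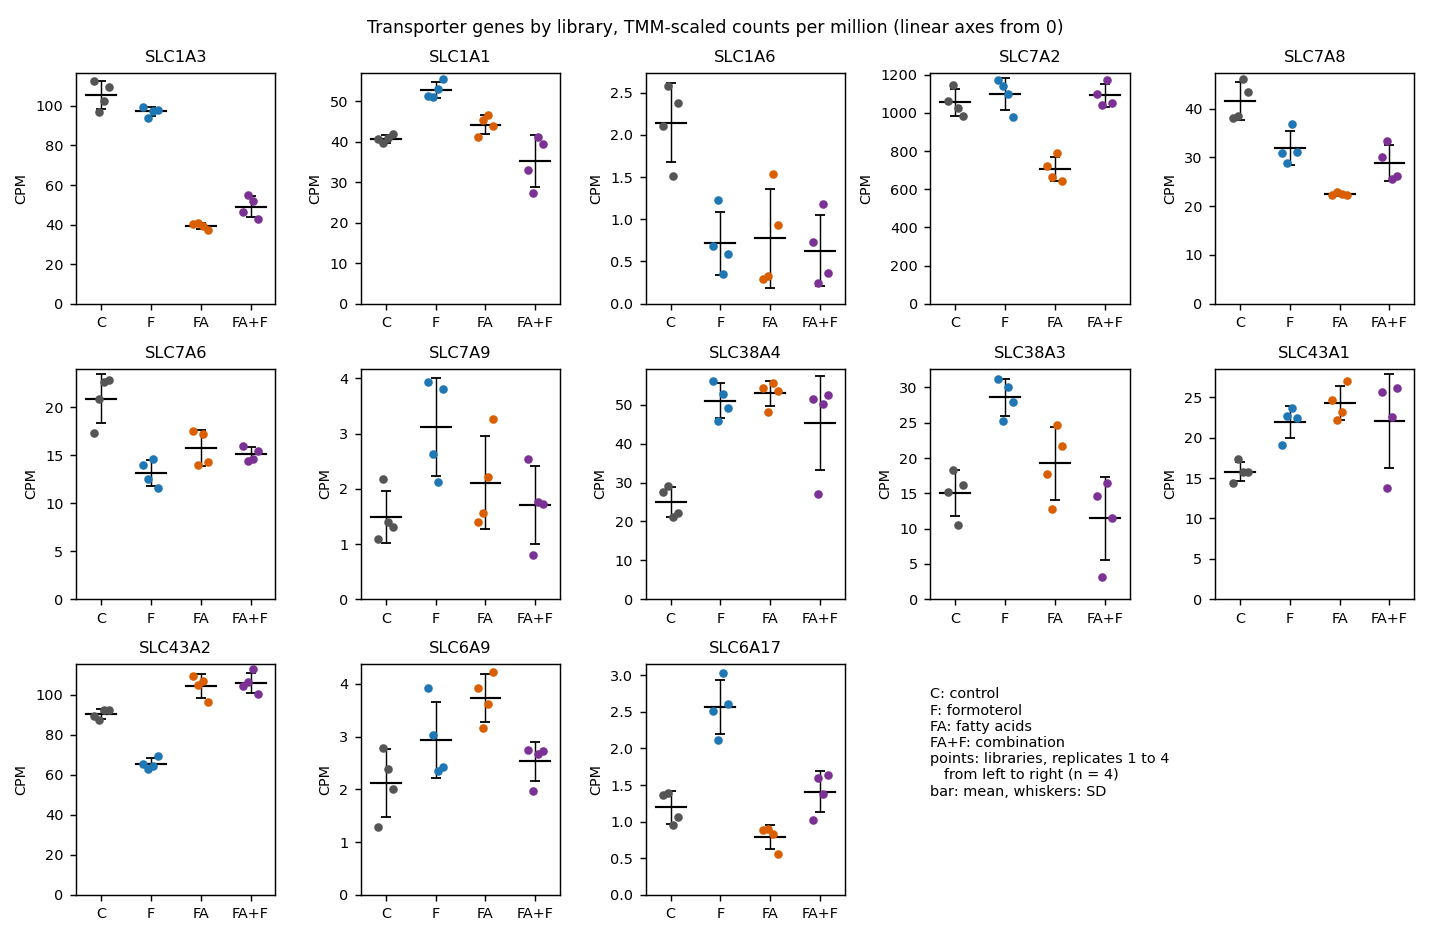
TMM-scaled CPM in each of the 16 libraries (points, replicates 1 to 4 from left to right) with the group mean and SD for the 13 genes called at a change of 1.5-fold or more with at least 2 CPM in some group. Each linear axis starts at 0; SLC1A3, SLC7A2 and SLC7A8 were lowest with fatty acids, and SLC38A4, SLC38A3 and SLC43A1 had a low combination replicate 2.

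The cationic carrier SLC7A2 brings arginine, lysine and ornithine into cells and is the form known from liver. It fell with fatty acids alone, and its level in the combination overlapped that of control. SLC7A2 had 1064, 1146, 1026 and 985 CPM in control and 722, 666, 789 and 646 CPM with fatty acids (chr8:17497088-17570573, plus strand). It had 1171, 1142, 1098 and 981 CPM with formoterol and 1099.8, 1040.3, 1175 and 1053 CPM in the combination. Every fatty acid library lay below every other library, and the other 3 groups overlapped. The log2 change was -0.58 ± 0.07 (adjusted p = 5.62e-06) for fatty acids against control and 0.63 ± 0.07 (adjusted p = 9.82e-06) for the combination against fatty acids. Formoterol without fatty acids gave 0.06 ± 0.07 (adjusted p = 0.680), and the interaction was 0.57 ± 0.10 (adjusted p = 0.00266). The combination against control gave 0.05 ± 0.07 (adjusted p = 0.732), with a 95% interval of -0.10 to 0.20. All 3 of the called comparisons of SLC7A2 kept their calls under every alternative tried.

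SLC7A1, the cationic carrier of most other tissues, was called in the combination against control at 0.43 ± 0.13 (adjusted p = 0.0235) (chr13:29509410-29595688, minus strand). It had 13.0 ± 1.73 CPM in control, 15.7 ± 1.33 with formoterol, 12.9 ± 2.22 with fatty acids and 17.5 ± 1.85 in the combination (SD, n = 4). The call was lost without any 1 of control replicate 1, 2 or 4 or combination replicate 1 or 2 (adjusted p = 0.0517 to 0.0839).

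Of the 11 SLC38 genes 9 were tested, and fatty acids against control called 4 lower and 1 higher, where 7.62% of all genes were called lower and 8.93% higher. SLC38A2 and SLC38A1 are sodium-coupled carriers of alanine, glutamine and other small neutral amino acids, and SLC38A10 is a less studied relative. SLC38A1 (chr12:46183063-46270017, minus strand) had 332 ± 23.0 CPM in control and 251 ± 14.5 with fatty acids (SD, n = 4), a log2 change of -0.40 ± 0.06 (adjusted p = 0.000104). Its change with formoterol was -0.23 ± 0.06 (adjusted p = 0.0235) and that of the combination, against control, -0.31 ± 0.06 (adjusted p = 0.00137). SLC38A10 (chr17:81245000-81295547, minus strand) had 305 ± 18.9 CPM in control and 237 ± 8.18 with fatty acids, a change of -0.36 ± 0.06 (adjusted p = 0.000120). The combination gave -0.36 ± 0.06 (adjusted p = 0.000118) against control and -0.20 ± 0.06 (adjusted p = 0.0174) against formoterol. SLC38A2 (chr12:46358189-46372867, minus strand) changed by -0.19 ± 0.06 (adjusted p = 0.0292) with fatty acids and by -0.28 ± 0.06 (adjusted p = 0.00206) with both treatments. Each of these 3 genes had all fatty acid libraries below all control libraries.

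Several of these smaller calls were lost when 1 library was left out, while the log2 change kept its direction. The SLC38A1 formoterol call was lost without any 1 of control replicate 1 or 2 or formoterol replicate 4 (adjusted p = 0.0628 to 0.0890), with log2 changes of -0.21 to -0.19. The SLC38A10 call against formoterol was lost without any 1 of formoterol replicate 2 or combination replicate 4 (adjusted p = 0.0612 to 0.0622), with a log2 change of -0.17 in each, and with total-count scaling (adjusted p = 0.572). The SLC38A2 fatty acid call was lost without any 1 of control replicate 1 or 2 or fatty acids replicate 3 or 4 (adjusted p = 0.0523 to 0.0975), with log2 changes of -0.20 to -0.16. It was also lost with total-count scaling (0.0655) and with no filter (0.0636). SLC38A2 in the combination against formoterol gave -0.19 ± 0.06 (adjusted p = 0.0295), lost without any 1 of formoterol replicate 1 or 2 or combination replicate 1, 3 or 4 (adjusted p = 0.0565 to 0.0993), with log2 changes of -0.18 to -0.16, and with total-count scaling, no filter or only the 2 groups fitted (0.0502 to 0.706).

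SLC38A4, a carrier of small neutral amino acids found mainly in hepatocytes, rose with each treatment alone (chr12:46764761-46832408, minus strand). It had 27.5, 29.1, 21.1 and 22.3 CPM in control and 56.2, 45.9, 52.8 and 49.1 CPM with formoterol. It had 54.4, 48.1, 55.6 and 53.5 CPM with fatty acids and 51.3, 27.1, 50.3 and 52.4 CPM in the combination. All formoterol and fatty acid libraries lay above all control libraries, and combination replicate 2 lay within the control range. The log2 change was 1.08 ± 0.15 (adjusted p = 2.47e-05) with fatty acids and 1.03 ± 0.15 (adjusted p = 0.000172) with formoterol. The combination against control gave 0.86 ± 0.15 (adjusted p = 0.000329), and 1.04 ± 0.10 (adjusted p = 8.12e-09) without combination replicate 2. The interaction was -1.25 ± 0.21 (adjusted p = 0.00189), and -1.07 ± 0.13 (adjusted p = 1.03e-05) without that library. The summed hepatocyte markers moved alongside, with group means of 31100.0 CPM in control, 55440 with formoterol, 53065 with fatty acids and 43412 in the combination, where replicate 2 had 21081. ALB, at 16504 CPM in control, made up most of the control sum, and the markers did not all move together: CYP3A4 had 2181 CPM in control and 812 in the combination without replicate 2. Their part in the result was not tested.

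SLC38A3, a hepatocyte carrier of glutamine, histidine and asparagine, was highest with formoterol (chr3:50205246-50221486, plus strand). It had 15.2, 18.3, 10.5 and 16.1 CPM in control and 31.2, 25.2, 30.1 and 28.0 CPM with formoterol. It had 17.7, 12.8, 24.7 and 21.7 CPM with fatty acids and 14.6, 3.20, 16.5 and 11.5 CPM in the combination. The formoterol libraries lay above all others, and combination replicate 2 had the lowest value of all 16, in the library with the lowest hepatocyte marker sum. Formoterol against control was called at 0.93 ± 0.29 (adjusted p = 0.0452), and the combination against formoterol at -1.32 ± 0.29 (adjusted p = 0.00328). The latter was -1.01 ± 0.18 (adjusted p = 0.000228) without combination replicate 2. The interaction was -1.68 ± 0.41 (adjusted p = 0.0222), and -1.36 ± 0.24 (adjusted p = 0.000543) without that library. Formoterol against control was lost without any 1 of control replicate 1, 2, 3 or 4, formoterol replicate 1, 2, 3 or 4, fatty acids replicate 1 or 4 or combination replicate 4 (adjusted p = 0.0521 to 0.152), with DESeq2's test (adjusted p = 0.0851) and with total-count scaling (0.0543). The interaction was lost without any 1 of control replicate 3 or fatty acids replicate 3 (adjusted p = 0.0514 to 0.0578).

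Among the lysosomal members, SLC38A7, an exporter of glutamine and asparagine, had 21.9 to 25.0 CPM in control and 17.6 to 18.9 with fatty acids (chr16:58665109-58685104, minus strand). The ranges did not overlap, and the log2 change was -0.33 ± 0.09 (adjusted p = 0.0114). SLC38A9, the arginine sensor of the lysosome, was called in no comparison and had 33.9 ± 3.86 CPM in control and 37.0 ± 2.19 with fatty acids (SD, n = 4). SLC36A1, a proton-coupled exporter, and its relative SLC36A4 were not called either. The 95% intervals for fatty acids against control were -0.05 to 0.31 for SLC38A9, -0.23 to 0.16 for SLC36A1 and -0.09 to 0.41 for SLC36A4, on the log2 scale. SLC38A6 and the low SLC38A11 and SLC36A2 were not called.

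The SLC43 genes encode carriers that let branched-chain and other large neutral amino acids pass down their gradients, except SLC43A3, which carries purine bases. SLC43A1 (chr11:57484534-57515786, minus strand) had 14.3, 17.3, 15.8 and 15.8 CPM in control and 24.7, 22.1, 23.2 and 27.0 CPM with fatty acids. It had 19.1, 22.7, 23.7 and 22.5 CPM with formoterol and 25.7, 13.7, 22.6 and 26.2 CPM in the combination. All formoterol and fatty acid libraries lay above all control libraries, while combination replicate 2 lay below every control library. The log2 change was 0.62 ± 0.14 (adjusted p = 0.00442) with fatty acids and 0.48 ± 0.14 (adjusted p = 0.0367) with formoterol. The combination gave 0.48 ± 0.14 (adjusted p = 0.0266), and 0.65 ± 0.10 (adjusted p = 3.10e-05) without replicate 2. The formoterol call was lost without any 1 of control replicate 1, 3 or 4, formoterol replicate 2, 3 or 4 or fatty acids replicate 1 (adjusted p = 0.0506 to 0.0961), and with total-count scaling (adjusted p = 0.0822). The combination call was lost without any 1 of control replicate 1, 3 or 4 or combination replicate 1, 3 or 4 (adjusted p = 0.0567 to 0.107), and with only the 2 groups fitted (0.089).

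SLC43A2 (chr17:1569267-1628886, minus strand) had 89.3, 87.2, 92.5 and 92.3 CPM in control and 65.2, 63.0, 64.6 and 69.3 CPM with formoterol. It had 109, 105, 107 and 96.1 CPM with fatty acids and 104, 107, 113 and 101 CPM in the combination. Every formoterol library was below every other library, and fatty acid and combination libraries overlapped. Formoterol gave -0.46 ± 0.06 (adjusted p = 3.88e-05) without fatty acids and 0.02 ± 0.06 (adjusted p = 0.916) with them, and the interaction was 0.49 ± 0.08 (adjusted p = 0.00202). Fatty acids raised it by 0.21 ± 0.06 (adjusted p = 0.0161), a call lost without fatty acids replicate 1 (adjusted p = 0.0817), with total-count scaling (0.0621) and with no filter (0.0709). The combination was higher than formoterol by 0.69 ± 0.06 (adjusted p = 5.84e-08). SLC43A3 was called in the combination against formoterol at 0.42 ± 0.13 (adjusted p = 0.0311), with 10.2 ± 0.380 and 7.60 ± 0.564 CPM. That call was lost without any 1 of formoterol replicate 1, 3 or 4 or combination replicate 1, 2 or 3 (adjusted p = 0.0540 to 0.0913), and with no filter (0.0707).

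Of the SLC6 carriers, those of creatine and taurine had the highest levels per length, at 8.24 and 6.78 CPM per kb, and changed in opposite directions with formoterol. SLC6A8, the creatine carrier (chrX:153688099-153696593, plus strand), had 45.3 to 47.2 CPM in control, 53.9 to 60.1 with formoterol, 32.5 to 36.8 with fatty acids and 35.5 to 48.5 in the combination. Formoterol raised it by 0.30 ± 0.08 (adjusted p = 0.0194), while fatty acids gave -0.40 ± 0.08 (adjusted p = 0.00168). The combination gave 0.32 ± 0.08 (adjusted p = 0.0328) against fatty acids and -0.38 ± 0.08 (adjusted p = 0.00238) against formoterol. The formoterol call was lost without any 1 of control replicate 3 or formoterol replicate 4 (adjusted p = 0.0569 to 0.0698), and with total-count scaling (0.109). The combination call against fatty acids was lost without any 1 of fatty acids replicate 2, 3 or 4 or combination replicate 1, 3 or 4 (adjusted p = 0.0582 to 0.117), and with only the 2 groups fitted (0.13).

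SLC6A6, the taurine carrier (chr3:14402576-14489349, plus strand), had 58.4 to 69.2 CPM in control, 45.3 to 50.2 with formoterol, 49.7 to 62.2 with fatty acids and 52.9 to 64.7 in the combination. Every formoterol library lay below every control and combination library. Formoterol gave -0.43 ± 0.08 (adjusted p = 0.00191), the combination against formoterol 0.25 ± 0.08 (adjusted p = 0.0351) and the interaction 0.47 ± 0.12 (adjusted p = 0.0213). The second was lost without any 1 of formoterol replicate 1 or 4 or combination replicate 2 (adjusted p = 0.0949 to 0.133), and the interaction without control replicate 3 (adjusted p = 0.0571). SLC6A12, the betaine carrier, was called in the combination against control at 0.50 ± 0.16 (adjusted p = 0.0423), with 4.92 ± 0.530 and 3.47 ± 0.560 CPM. That call was lost without any 1 of control replicate 1, 3 or 4, fatty acids replicate 1 or 3 or combination replicate 1, 3 or 4 (adjusted p = 0.0501 to 0.125), and with the replicate block, no filter or only the 2 groups fitted (0.0624 to 0.148).

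The glycine carrier SLC6A9 (chr1:43991500-44031467, minus strand) had 1.28, 2.78, 2.38 and 2.01 CPM in control and 3.93, 3.16, 3.61 and 4.22 CPM with fatty acids. It had 3.91, 3.02, 2.35 and 2.43 CPM with formoterol and 2.74, 1.97, 2.67 and 2.73 CPM in the combination. All fatty acid libraries lay above all control libraries, and the formoterol libraries overlapped both groups. Fatty acids against control gave 0.82 ± 0.23 (adjusted p = 0.0185), lost without any 1 of control replicate 1 or 4 or fatty acids replicate 4 (adjusted p = 0.0501 to 0.0661). SLC6A9 shares 404 exon bases on the opposite strand with CCDC24, whose counts were 0.956 of its own. The sources used here do not give the strand setting of the counting, so reads of these genes may not be separated.

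SLC6A17, a vesicular carrier of neutral amino acids known from neurons, was low, at 22 to 155 counts per library. It had 1.37, 1.39, 0.953 and 1.06 CPM in control and 2.51, 2.11, 3.03 and 2.61 CPM with formoterol. It had 0.879, 0.903, 0.829 and 0.556 CPM with fatty acids and 1.02, 1.60, 1.37 and 1.64 CPM in the combination. All formoterol libraries lay above all others, and all fatty acid libraries lay below all control libraries. Formoterol raised it by 1.10 ± 0.26 (adjusted p = 0.00811), and the combination against formoterol gave -0.86 ± 0.25 (adjusted p = 0.0204). The latter was lost without any 1 of formoterol replicate 3 or 4 or combination replicate 1 (adjusted p = 0.0515 to 0.0714), with total-count scaling (adjusted p = 0.0534) and with no filter (0.0951). Its RefSeq window holds the short sequence TGACG, part of the CRE, the element bound by CREB downstream of β-adrenergic cAMP signalling, and is shown because the gene had the largest called log2 rise with formoterol among members.
SLC6A17, chr1:110150434-110150493, plus strand: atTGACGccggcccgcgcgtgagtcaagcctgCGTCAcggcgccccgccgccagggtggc
Capitals mark TGACG on either strand, with the last base shown lying 1 base before the RefSeq start. TGACG was in 34.8% of member windows and 24.6% of all windows. It was in a window of 17 of the 32 tested members with windows. Of members called with formoterol alone, a window held it in SLC6A17 and SLC6A8, which rose, and SLC7A6, SLC43A2 and SLC7A8, which fell. It was in no window of SLC1A1, SLC38A4, SLC43A1 and SLC7A9, which rose, or of SLC38A1, which fell. SLC38A3 and SLC6A6 had no window. Its link to the changes was not tested. The whole element TGACGTCA was in 0 of the 66 member windows and 1.85% of all windows. SLC6A4, SLC6A13, SLC6A15, SLC6A16 and SLC6A20 were called in no comparison, and of these all but SLC6A16 stayed under 2 CPM in every library.

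The effect of formoterol on these genes differed between cells without and with fatty acids for the 10 members called in the interaction. SLC7A8 was lowered by formoterol alone and raised by it with fatty acids, both as called changes. SLC7A6, SLC43A2, SLC6A6 and SLC38A1 were lowered by formoterol alone, with changes of -0.06 ± 0.11, 0.02 ± 0.06, 0.04 ± 0.08 and 0.09 ± 0.06 with fatty acids. SLC7A2 and SLC1A3 were raised by formoterol with fatty acids and not called without. SLC38A4, SLC38A3 and SLC1A1 were raised by formoterol alone, and their changes with fatty acids were -0.22 ± 0.15, -0.75 ± 0.29 and -0.33 ± 0.09, none called. The SLC38A1 interaction, 0.32 ± 0.09 (adjusted p = 0.0396), was lost without any 1 of control replicate 1, 2 or 3, formoterol replicate 1, 3 or 4, fatty acids replicate 1, 2 or 4 or combination replicate 1 or 3 (adjusted p = 0.0527 to 0.0866), and with no filter (0.0539).

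**Figure D4:**
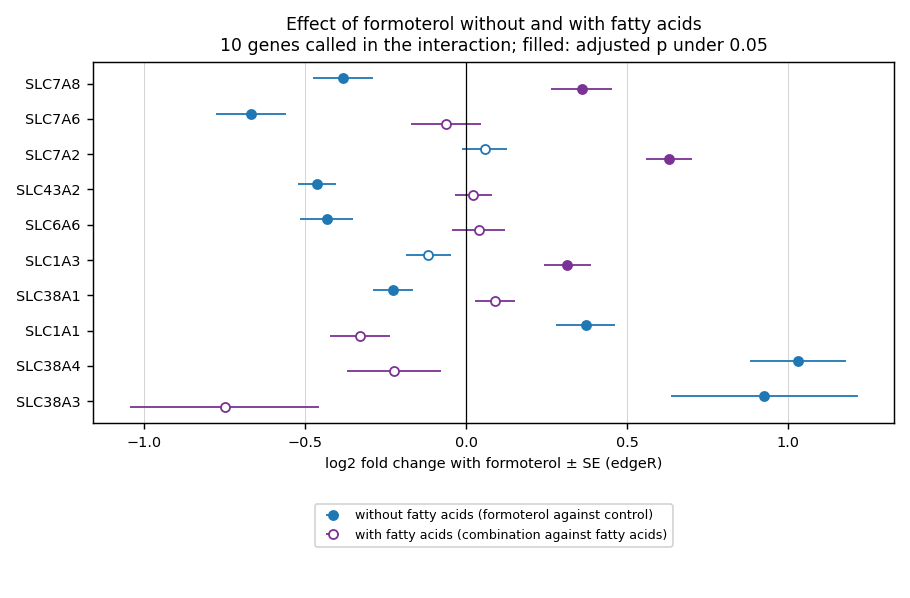
Log2 fold change with formoterol and its SE (edgeR, 4 libraries per group) in the absence of fatty acids (formoterol against control) and in their presence (combination against fatty acids) for the 10 genes called in the interaction. Filled points have an adjusted p under 0.05; SLC7A8 is the gene called in opposite directions, and SLC38A4 rose by 1.03 without fatty acids and was not called with them.

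Across the 40 tested members, the fatty acid effect without formoterol and that with formoterol come from separate libraries. Their log2 changes had a Pearson r of 0.34 and a Spearman rho of 0.22, with 26 of 40 of the same sign. Over all tested genes the Pearson r was 0.28. Of 15 and 12 calls, 7 were shared, all in the same direction. For the formoterol effect without and with fatty acids the values were 0.03 and -0.06, against a Pearson r of -0.0016 over all tested genes, with 18 of 40 of the same sign, and of 12 and 5 calls 2 were shared, 1 of them in the same direction. Same signs and shared calls were not counted over all tested genes, so those counts cannot be read as particular to the transporters. Genes are not independent replicates and each library enters all genes, so these are descriptions.

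Genes of the surrounding pathways were taken from lists that were chosen with earlier results of these data known. Those named below had the smallest p of their list over the 6 comparisons, so they are its extremes and do not stand for the list. Of 25 tested genes of the integrated stress response, which raises many transporters and amino acid enzymes when supply falls, formoterol against control called 7 higher and 0 lower, and fatty acids against control 4 higher and 4 lower. Over all genes formoterol called 5.76% higher and 4.57% lower, and fatty acids 8.93% and 7.62%. The combination called 1 higher and 7 lower against formoterol, where 9.48% and 8.97% of all genes were called, and 2 higher and 0 lower against fatty acids, where 1.68% and 1.12% were. The median log2 change of the list was 0.13 with formoterol, against -0.0022 over all tested genes, and -0.11 with fatty acids, against 0.0069. CHAC1, which degrades glutathione, gave 0.56 ± 0.14 (adjusted p = 0.0155) with formoterol, -0.87 ± 0.15 (adjusted p = 0.000296) with fatty acids and 1.25 ± 0.15 (adjusted p = 1.92e-05) for the combination against fatty acids. PHGDH, the first enzyme of serine synthesis, rose by 0.53 ± 0.08 (adjusted p = 0.000130) with fatty acids and 0.46 ± 0.08 (adjusted p = 0.00132) with formoterol.

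Of 13 glutamate and glutamine enzymes, fatty acids called 4 higher and 2 lower, and formoterol 5 higher and 1 lower. The combination against formoterol called 1 higher and 6 lower, with a median log2 change of -0.31 against 0.0082 over all tested genes, and the interaction 0 positive and 3 negative. Over all genes these 4 comparisons called 16.5%, 10.3%, 18.4% and 5.50%. GOT1, which links glutamate and aspartate, had 221 ± 15.2 CPM in control and 122 ± 2.97 with fatty acids (SD, n = 4), a change of -0.86 ± 0.07 (adjusted p = 8.00e-09). GPT2, an alanine aminotransferase that is also in the stress list, rose by 0.55 ± 0.10 (adjusted p = 0.000645) with fatty acids and 0.63 ± 0.10 (adjusted p = 0.000477) with formoterol. GLUL, glutamine synthetase, gave 0.15 ± 0.05 (adjusted p = 0.0309) with fatty acids and -0.30 ± 0.05 (adjusted p = 0.000365) with formoterol.

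Of 33 genes that relay amino acid levels to mTORC1, fatty acids called 1 higher and 4 lower and formoterol 0 higher and 5 lower, or 5 of 33 in each, where 16.5% and 10.3% of all genes were called. The raised gene with fatty acids was SESN1, at 0.47 ± 0.06 (adjusted p = 1.08e-05), while MIOS gave -0.54 ± 0.06 (adjusted p = 3.40e-06). FLCN was lower in the combination than in control, at -0.41 ± 0.09 (adjusted p = 0.00289). Of 15 tested carriers of other families, fatty acids called 1 higher and 3 lower, and of 7 tested partners and regulators of the carriers 2 higher and 3 lower, against the same 16.5%. Among the former, SLC25A18, a mitochondrial glutamate carrier, gave -0.60 ± 0.09 (adjusted p = 0.000108) with fatty acids and 0.57 ± 0.13 (adjusted p = 0.0155) in the interaction. SLC25A38, a mitochondrial glycine carrier, gave -0.44 ± 0.09 (adjusted p = 0.00136) with fatty acids. SLC25A15, which carries ornithine into mitochondria, rose by 0.48 ± 0.14 (adjusted p = 0.0265) with formoterol. Among the partners and regulators, NEDD4, a ubiquitin ligase that removes carriers from the membrane, rose by 0.50 ± 0.09 (adjusted p = 0.000290) with fatty acids. The kinase SGK1 gave -0.19 ± 0.07 (adjusted p = 0.0452) with fatty acids and 0.21 ± 0.06 (adjusted p = 0.0390) with formoterol, and NEDD4L gave -0.24 ± 0.07 (adjusted p = 0.0177) with fatty acids.

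Of the 40 tested members 16 share exon bases with another gene. Besides SLC6A9 and SLC7A6, SLC38A11 shares 79 bases with AC019197.1, whose counts were 0.236 of its own, and SLC38A6 shares 245 bases with TRMT5, whose counts were 1.72 of its own, both on opposite strands. How many reads fell in the shared bases was not tested.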

How the data were processed

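Counts are those the authors deposited, 1 value per gene and library for 16 libraries, with a gene length in the same table. Per the submitters' processing notes, reads were aligned with HISAT2 2.0.5, and the notes also name DESeq2 and the build mm39. The gene identifiers are human, with 0 mouse identifiers, and 58724 of 58735 genes match GENCODE 29 on GRCh38 by name and position. The sources used here do not name the counting program or its strand setting.

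Counts were analysed in edgeR 4.0.16 (R 4.3.3): filterByExpr (18121 genes kept, at least 99.9% of each library's counts), TMM scaling, 1 mean per group over all 16 libraries (12 residual degrees of freedom), glmQLFit and glmQLFTest, and Benjamini-Hochberg adjustment over all tested genes, called at 0.05. The 6 comparisons were fixed by the design. The groups were taken from the labels, and no column of another series was present. The steps were tested on simulated counts with 200 changed genes of at least 2 CPM. They found 64% to 73% of 1.5-fold changes in the comparisons of 2 groups and 40% in the interaction. Of the calls, 2.99% to 6.06% were false in the former and 7.2% in the latter. Alternatives were DESeq2 1.42.0, other scalings and filters, a replicate block, pairs of groups, protein-coding genes only and leaving out each library. Members were named in full when called at a log2 change of at least 0.58 with at least 2 CPM in some group, with SLC1A3 always described. SLC7A7, whose largest called log2 change was 0.57, is also given with every library value. Other called members are given by change, and uncalled ones by level. Some items are not reported here. At most 3 genes are named per pathway list, those with the smallest p over the 6 comparisons. The members, role groups and pathway and marker lists were chosen with earlier results of these data known. Promoter windows (250 bases before to 50 after a start) come from RefSeq (GRCh38.p14). Genes that share exon bases were found from the GENCODE 29 positions.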

Additional observations from a re-analysis of the deposited data

Results flagged for a closer look

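Single libraries stood apart from the other 3 of their group in 3 of 96 groups checked over the 24 called members, where chance gives about 1 in 20. SLC38A4 had 27.1 CPM in combination replicate 2, against 50.3 to 52.4 in the others. SLC6A9 had 1.97 CPM in the same library, against 2.67 to 2.74. SLC38A7 had 26.1 CPM in formoterol replicate 2, against 20.4 to 21.0.

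The effect of formoterol with fatty acids minus that without, on the log2 scale by edgeR's interaction term, was called for 10 members. It was positive for SLC7A8 (0.74), SLC7A6 (0.60), SLC7A2 (0.57), SLC43A2 (0.49), SLC6A6 (0.47), SLC1A3 (0.43) and SLC38A1 (0.32). It was negative for SLC38A3 (-1.68), SLC38A4 (-1.25) and SLC1A1 (-0.70).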

How the results depend on the processing

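Of 68 calls of a member in a comparison, 41 held under every alternative, 27 were lost under at least 1, and 0 changed direction. Another 20 were gained under at least 1. Leaving out 1 library gave 13 to 17 members called for fatty acids against control, 7 to 15 for formoterol against control, 2 to 5 for the combination against fatty acids, 9 to 12 against formoterol, 10 to 14 against control and 6 to 11 for the interaction. The combination against fatty acids called 8 members with no filter on low counts and 2 with only these groups fitted, against 5. Over all genes that comparison called 507, and 880 with no filter, 795 with DESeq2's test and 275 with only these groups fitted. The interaction called 997 genes over all, and 1523 with no filter.

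The labels do not say whether equal replicate numbers mark paired libraries. Log2 CPM deviations from the group means were correlated over tested genes between same-numbered libraries of different groups. The correlation was over 0.1 in 0 of 24 pairs, which does not settle whether the libraries were paired. With the replicate block the comparisons called 15, 11, 6, 12, 13 and 10 members, in the order fatty acids and formoterol against control, the combination against fatty acids, formoterol and control, and the interaction. Total-count scaling moved the median of all genes by -0.13 for formoterol against control, 0.13 for the combination against formoterol and 0.16 for the interaction. Members under 2 CPM rest on few counts, and how detection depends on level was not tested.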
